A study of Mus musculus with 5 samples.

Results

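The mitochondrial ribosomal protein genes were taken as all protein-coding genes of the GENCODE mm10 annotation (release M21) whose symbol is Mrpl or Mrps followed by a digit. On chromosomes 1 to 19 and X this gave 78 of 21755 genes, 49 Mrpl genes for the large subunit and 29 Mrps genes, most of them for the small subunit. The data are 3 lists of chromatin immunoprecipitation and sequencing (ChIP-seq) peaks from female mouse embryonic stem cells (mESCs) of a 129/Sv-Cast/Ei hybrid line, with 1 library per list. In the first, FLAG-V5-REX1 was expressed in WT cells. In the other two, Rlim+/- cells expressed FLAG-V5-tagged RNF12, either RNF12 WT or the form with the changes H569A,C572A. The latter has no catalytic activity and is called the RNF12 mutant here. Each protein was precipitated through its V5 tag.

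RNF12, encoded by Rlim, is an E3 ubiquitin ligase that marks the transcription factor REX1 for destruction by the proteasome. The RNF12 cells were treated with 15 μM MG132, a proteasome inhibitor, for 3 h and were cross-linked with 2 mM DSG and 1% formaldehyde. No such treatment is stated for the REX1 library, which the labels describe as V5-tagged while the study refers to earlier work for REX1. The tagged RNF12 proteins came from transgenes under a CAG promoter and not from the endogenous locus, and the construct for tagged REX1 is not given in the sources used here. The 2 input libraries, from WT cells, were not analysed here. Which input stands behind each list was not settled, and the RNF12 lists may share theirs, so fold enrichments are read only within a list. Each list rests on 1 library, so replicate error is unknown and the proteins were not tested against each other.

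Mitochondria carry their own ribosome, which translates the few membrane subunits of the respiratory chain that mitochondrial DNA encodes. Its RNAs come from mitochondrial DNA, but every one of its proteins is encoded in the nucleus, made in the cytosol and imported. Some of these proteins descend from those of bacterial ribosomes, and others were added in the mitochondrial lineage. The genes are scattered, and these members lay on 17 chromosomes, with 2 on chromosome 10, 0 on chromosome 12 and 0 on X.

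The sequences under the REX1 summits are shown first, because the position of one short string recurs in them. A summit is the base of highest signal within a peak. In each line the capitals mark the 8 bases AAGATGGC, the core recognised by YY1, a zinc finger factor from whose gene family Zfp42 (REX1) arose. The 6 members shown are those with the highest REX1 fold enrichment among the 11 that hold these bases within 50 bp of their REX1 summit.
Mrpl36, chr13:73328431-73328460, minus strand: gggtcaccggcAAGATGGCggcggtgctga
Mrps7, chr11:115604147-115604176, plus strand: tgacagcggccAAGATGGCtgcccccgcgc
Mrpl35, chr6:71823743-71823772, minus strand: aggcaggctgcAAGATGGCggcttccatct
Mrps18a, chr17:46111004-46111033, plus strand: aggtgcgttccAAGATGGCggccctcaggg
Mrps18b, chr17:35916348-35916377, minus strand: cggtgtgcgtcAAGATGGCtgcccccttgc
Mrps27, chr13:99344789-99344818, plus strand: tggtgcgctccAAGATGGCggctcccatgg
Coordinates are those of GRCm38 (mm10), and all sequences are read 5′ to 3′. In Mrps7, Mrpl35, Mrps18a, Mrps18b and Mrps27 the ATG inside the capitals was the annotated start codon of the gene itself. In Mrpl36 the string read against the gene, and its ATG was the start codon of the neighbour Ndufs6, a complex I subunit that is transcribed away from Mrpl36 from the same promoter.

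A related string, ATGGCGGC, was found at other members. The next 5 lines show the members of highest REX1 fold enrichment, other than those above, that had one of the searched strings on their start codon and a REX1 summit within 20 bp of it. Here the capitals begin at the start codon.
Mrps35, chr6:147042780-147042809, plus strand: tcgccgtcctttatcATGGCGGCcgccgcg
Mrpl22, chr11:58171671-58171700, plus strand: tccgtagggctcagcATGGCGGCcgcacta
Mrps30, chr13:118387220-118387249, minus strand: tcgcggcgggcgaaaATGGCGGCggccagg
Mrpl50, chr4:49521039-49521068, minus strand: ggttgcttgtcgagaATGGCGGCgctgatc
Mrps5, chr2:127587413-127587442, plus strand: tgctccggctccagcATGGCGGCggccgta
In all 5 the string on the start codon was ATGGCGGC, and the 15 bases printed before it differed from gene to gene.

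For comparison, these are the bases at the 4 highest RNF12 WT summits among members without AAGATGGC there. The single capital is the summit base, and each sequence is read along its gene.
Mrpl40, chr16:18876497-18876526, minus strand: actatggctaccgggGtgatgctgtgtgct
Mrpl39, chr16:84735248-84735277, minus strand: cgggggaagagggacGagaaggaccgggac
Mrpl45, chr11:97315842-97315871, plus strand: gctagcatcccggcGgcctttgcgcgagca
Mrpl15, chr1:4785712-4785741, minus strand: gcggagccgtaaagcAacgcggagtctacg
None of these 4 windows of 30 bases held AAGATGGC, ATGGCGGC or ATGGCTGC, the searched strings of the REX1/YY1 family, on either strand. The Mrpl40 window did hold ATGGC, the part that these strings share, on its own start codon, 12 bp from the summit. The REX1 windows above were chosen for holding one, and these for lacking AAGATGGC, so the contrast in AAGATGGC was set by the choice. Among all members, AAGATGGC lay within 50 bp of the RNF12 WT summit at 8 (10.7%). Within 50 bp, the window used for the counts below, Mrpl45 did have ATGGCGGC at its RNF12 WT summit, on its own start codon.

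Nearly all Mrp genes had a promoter peak in each list. A gene was counted where a summit lay within 1 kb of a transcription start site (TSS) of any of its transcripts. In the REX1 list 77 of the 78 members were counted, 98.7% (95% Wilson interval 93.1% to 99.8%), against 67.5% of all protein-coding genes. In the RNF12 WT list 75 members were counted, 96.2% (89.3% to 98.7%), against 68.9% of all genes. In the RNF12 mutant list 73 were counted, 93.6% (85.9% to 97.2%), against 67.7%. The intervals cover counting error over genes only. With the 20000 peaks of highest −log10 q per list alone, the shares were 74.4%, 67.9% and 46.2%, against 35.3%, 40.4% and 28.3% of all genes.

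Promoters rich in CpG dinucleotides are the commonest kind at housekeeping genes, and most genes with such a promoter had a summit in each list. A TSS was called CpG-rich where the 250 bp on either side had an observed to expected CpG ratio of at least 0.6 and a GC content of at least 50%. By that definition 75 members (96.2%) were CpG-rich, against 56.9% of all genes. Among the 12389 CpG-rich genes, 96.4% had a REX1 summit, 97.2% an RNF12 WT summit and 98.6% an RNF12 mutant summit. The CpG-rich members, at 98.7%, 96% and 93.3%, stood close to that background for REX1 and RNF12 WT and below it for the RNF12 mutant, where 5 of the 75 lacked a summit. The 3 members without a CpG-rich TSS all had a summit in each list.

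Related gene families gave similar shares. The genes of the cytosolic ribosome, which translates all nuclear-encoded messages, numbered 92, and 91.3% had a REX1 summit, 89.1% an RNF12 WT summit and 87.0% an RNF12 mutant summit. The nuclear-encoded subunits of the respiratory chain, the partners of the proteins that the mitochondrial ribosome makes, numbered 85, with 91.8%, 94.1% and 91.8%. The Mrp interval held the values of both families in the RNF12 mutant list, that of the respiratory chain alone for RNF12 WT, and neither for REX1. The differences between families were not tested.

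**Figure D1:**
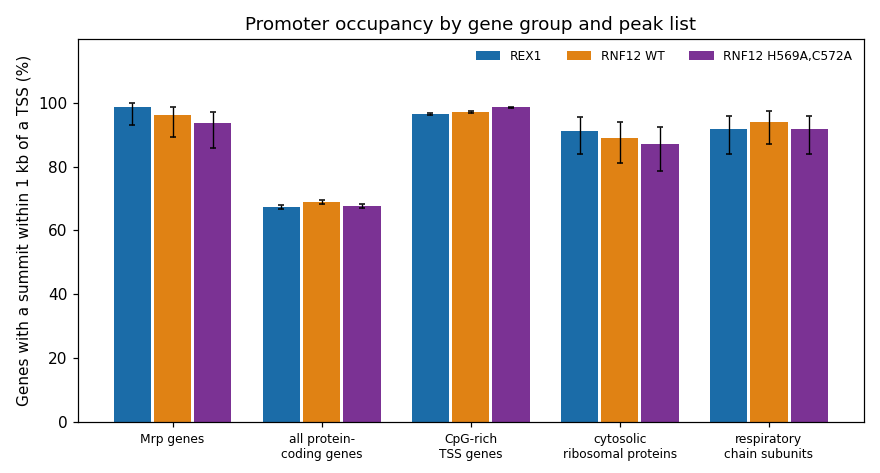
Share of genes with a summit within 1 kb of a TSS (y axis, percent) for 5 gene groups (x axis) in the 3 lists (colours; H569A,C572A is the RNF12 mutant); error bars are 95% Wilson intervals over genes. The Mrp genes stand at 98.7%, 96.2% and 93.6%, above all protein-coding genes at 67.5%, 68.9% and 67.7%. They are near genes with a CpG-rich TSS for REX1 and RNF12 WT and below them, at 98.6%, for the RNF12 mutant.

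A total of 72 members (92.3%) had a summit in all 3 lists, against 60.7% of all protein-coding genes and 93.4% of CpG-rich genes. With 20000 peaks per list the count was 23 of 78, against 14.3% of all genes. Just 1 member (1.28%) had none, against 25.1% of all genes and 0.218% of CpG-rich genes. That member was Mrpl16, the counterpart of a bacterial large subunit protein, at chr19:11770391-11774960 on the plus strand. It has a CpG-rich TSS, but its nearest summits lay 21647 bp upstream in the REX1 list, 21785 bp upstream for RNF12 WT and 31667 bp upstream for the RNF12 mutant.

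Another 5 members had a gap in at least 1 list. Mrpl24 had a REX1 summit 83 bp upstream of its TSS, with a fold enrichment of 5.51, and no promoter summit for either form of RNF12. Its nearest RNF12 summits were 8585 bp downstream for RNF12 WT and 8612 bp downstream for the RNF12 mutant. Mrpl10, which anchors the stalk of the large subunit, lacked an RNF12 WT summit. It had a REX1 summit at 5.04-fold and an RNF12 mutant summit at 7.44-fold.

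The other 3 lacked only an RNF12 mutant summit. Mrpl35 had a REX1 peak of 14.7-fold with its summit exactly at a TSS, and an RNF12 WT peak of 6.12-fold 15 bp downstream. Mrps31, of the small subunit, had 8.22-fold for REX1 and 5.48-fold for RNF12 WT, at 14 and 7 bp downstream. Mrpl11, which sits where translation factors dock on the large subunit, had peaks of 3.45-fold for REX1 and 5.58-fold for RNF12 WT. Thus Mrpl35 was among the highest REX1 peaks of the list, at the 99.2 percentile, while Mrpl11 was at the 15.2 percentile.

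The 1 kb limit decided few of these calls. The summits nearest to it on the inner side were that of RNF12 WT at Mrps5, 927 bp downstream of a TSS, and that of the RNF12 mutant at Mrpl41, 896 bp upstream. Next, each 871 bp upstream, were those of RNF12 WT at Mrpl41 and of the RNF12 mutant at Mrpl57. The nearest on the outer side was the RNF12 mutant summit 4055 bp upstream of Mrpl11.

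Summits at Mrp genes lay close to the TSS. The median distance, regardless of side, was 33 bp in the REX1 list, 39 bp for RNF12 WT and 47 bp for the RNF12 mutant. Over all genes with a summit it was 116, 132 and 97 bp, and over CpG-rich genes 101, 119 and 83 bp. These are distances of the summit of highest fold enrichment where a gene had several. With the summit nearest to a TSS in its place, members stood at 27, 32 and 40 bp and all genes at 59, 63 and 66 bp, so that the difference narrowed. The respiratory chain genes stood at 46.5, 57 and 65 bp. The cytosolic ribosomal protein genes stood at 76, 86.5 and 88 bp, the last of these above the CpG-rich median. Within 50 bp of a TSS stood 49 REX1 summits (63.6%, against 31.5% of all genes), 40 RNF12 WT summits (53.3%, against 27.1%) and 39 RNF12 mutant summits (53.4%, against 33.7%).

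There was little preference for a side. Of the REX1 summits 36 were upstream, 37 downstream and 4 exactly at a TSS, and the median signed position was 0 bp. For RNF12 WT 36 were upstream and 38 downstream, with a median of 1 bp, and for the RNF12 mutant 38 were upstream and 35 downstream, with a median of -3 bp. Only 3, 5 and 3 summits, respectively, lay over 300 bp from a TSS. Mrp genes had a median of 4 annotated TSSs, against 3 for all genes and 5 for CpG-rich genes. With the 5′ end of each gene as its only TSS, the median distances were 84.5, 131 and 100 bp, against 179, 199 and 166 bp over all genes.

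**Figure D2:**
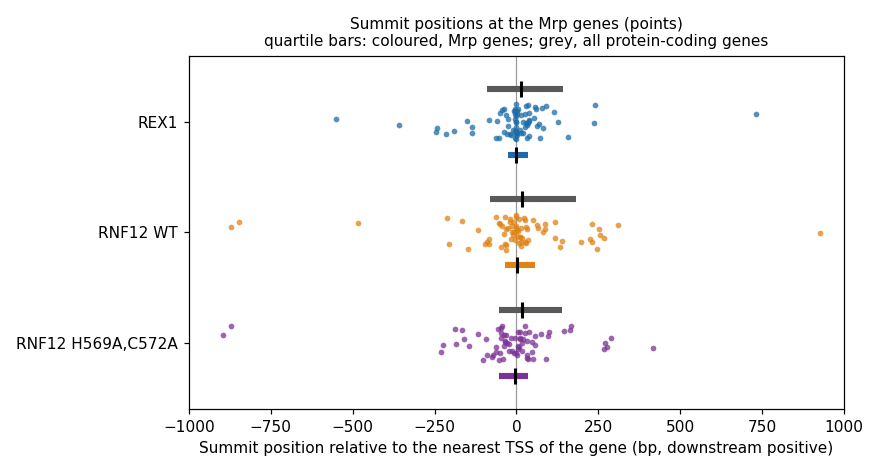
Position of the summit relative to the nearest TSS of its gene (x axis, bp, downstream positive) for each Mrp gene (points, spread vertically for visibility) in the 3 lists (rows). Horizontal bars span the quartiles, coloured for Mrp genes and grey for all protein-coding genes, with a tick at the median; the Mrp bar for REX1 runs from -27 to 35 bp and that for all genes from -90 to 142 bp.

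Some of the farthest summits belonged to genes with TSSs far apart. At Mrpl33, whose gene spans chr5:31596935-31664384 and has 11 annotated TSSs, the REX1 summit of 7.79-fold was 730 bp downstream of one TSS. The RNF12 summits there stood 23 bp downstream and 16 bp upstream of another, so that the summits of the 3 lists were spread over 14712 bp. At Mrps5, the small subunit gene shown above, the REX1 and RNF12 mutant summits were 5 and 40 bp upstream of a TSS. The RNF12 WT summit lay inside the gene, 927 bp downstream of its nearest TSS, and the 3 summits spanned 13581 bp.

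Elsewhere the summits of the 3 lists nearly coincided. At Mrpl30 they lay 50, 51 and 52 bp upstream of the TSS, within 2 bp of each other. At Mrpl40, a large subunit protein with no bacterial counterpart, they lay 31, 28 and 35 bp downstream, within 7 bp. At Mrpl9 the REX1, RNF12 WT and mutant summits each stood 3 bp upstream of a TSS, although these were not all the same TSS, and spanned 19 bp. Over the 72 members in all lists the median span was 178 bp, against 358 bp over all 13204 such genes, and 18.1% of members against 9.15% of genes had the summits within 50 bp. By pairs of lists, members had median distances of 67 bp (REX1 and RNF12 WT), 87 bp (REX1 and mutant) and 61 bp (RNF12 WT and mutant). Respiratory chain genes were much alike, at 63, 70 and 72 bp, against 222, 179 and 157 bp over all genes. The lists may share a control and these values are a description.

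The peaks of Mrp genes ranked high within the REX1 and RNF12 WT lists. Ranks are given as percentiles of fold enrichment over control among all peaks of the same list, where 100 is the highest peak. The median member stood at percentile 89.7 in the REX1 list, 89.1 for RNF12 WT and 84.3 for the RNF12 mutant. Promoter peaks of all protein-coding genes stood at 77.5, 81 and 79.8, and those of CpG-rich genes at 80.3, 84.7 and 82.6. The respiratory chain genes stood at 86.5, 84.8 and 78. Among genes with no other protein-coding TSS within 1 kb, the order turned for the RNF12 mutant, where members stood at 77.7 and all such genes at 79.2. It held for REX1, at 85.8 against 76.5, and for RNF12 WT, at 85 against 80.5. With all members included, the excess over CpG-rich genes was widest for REX1 and narrowest for the RNF12 mutant, but the lists differ in their spread and the difference was not tested.

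The upper end of each list was described in the same way. In the highest 1% of the REX1 list were the peaks of 12 members (15.6%), against 3.67% of all genes with a summit, and in that of the RNF12 WT list 13 members (17.3%), against 5.57%. In the RNF12 mutant list the highest 1% held 1 member (1.37%), against 0.746%. The same shares were 4.08%, 6.57% and 0.827% for CpG-rich genes and 10.3%, 3.75% and 0% for respiratory chain genes. The highest 10% held 38, 36 and 22 members, or 49.4%, 48% and 30.1%, against 28%, 34.1% and 21.4% of all genes with a summit. For CpG-rich genes these shares were 30.9%, 38.4% and 24.9%, and for respiratory chain genes 42.3%, 40% and 17.9%. Low peaks also occurred, and 13, 8 and 3 members were below the median of their list, 16.9%, 10.7% and 4.11%, against 22.4%, 19.1% and 14% of all genes. Of CpG-rich genes 18.9%, 15% and 7.61% were below it, and of respiratory chain genes 11.5%, 10% and 19.2%.

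Among REX1 peaks, the highest of any Mrp gene was that of Mrpl52, a large subunit protein specific to mitochondria, at 31.8-fold. It ranked 24 of the whole list, with its summit 30 bp upstream of the TSS of the gene at chr14:54426909-54429756. The same promoter had 6.48-fold for RNF12 WT and 14.5-fold for the RNF12 mutant, at percentiles 89.1 and 87.9. Mrpl48, which shares its promoter region with the trafficking gene Rab6a, had 24.2-fold for REX1, with the summit in an intron 238 bp downstream. Mrpl40 followed with 20.2-fold, Mrpl47 with 19-fold and Mrps35 with 17.9-fold. All 5 were above the 99.6 percentile of the REX1 list, whereas their RNF12 WT percentiles ran from 65.3 for Mrps35 to 99.97 for Mrpl40.

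Among RNF12 WT peaks, Mrpl40 was highest at 14.8-fold and ranked 25 of the list. Mrpl39, another mitochondria-specific protein, followed with 13.5-fold at rank 43, then Mrpl45 with 12.9-fold, Mrpl15 with 12-fold and Mrpl44 with 11.6-fold. MRPL45 lies at the tunnel exit, where it holds the ribosome against the inner membrane, and MRPL44 has the fold of an RNA-cleaving enzyme. These 5 were also high for REX1, with 20.2, 10.2, 9.74, 17.2 and 14.4-fold in the same order. Of these, Mrpl44 was the lowest in the RNF12 mutant list, at 12.3-fold and percentile 82.5.

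For the RNF12 mutant the highest member was Mrpl15, a counterpart of a bacterial large subunit protein, at 30.3-fold, rank 789. Next came Mrpl39 with 28.2-fold, Mrpl36 with 25.8-fold, Mrpl40 with 25.1-fold and Mrpl45 with 22.6-fold. Thus 4 of these 5 were also among the 5 highest for RNF12 WT, and the exception, Mrpl36, had its RNF12 WT summit at another TSS, so that its 3 summits spanned 2612 bp.

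Some members ranked very differently between the lists, and the following were chosen after their values were seen. Mrpl12, a stalk protein of the large subunit, was at percentile 6.33 for REX1 with 3.01-fold, the lowest REX1 value of any member, but at 99.5 for RNF12 WT with 10.1-fold. Mrps21 was at 34.3 for REX1 and 99.5 for RNF12 WT. Mrps12, whose protein lines the decoding centre, was at 13.4 for REX1 and 99.1 for RNF12 WT, but these summits lay 2062 bp apart at different TSSs, the former outside the gene on the side of Sars2. The opposite order was seen at Mrpl51, with 15.5-fold and percentile 99.3 for REX1 but percentile 45.1 for RNF12 WT, and at Mrps2, with 96.6 and 28.1. The RNF12 mutant percentiles of these 5 genes were 90.5, 91.4, 82.5, 44.5 and 77.7. At the other 4 the summits of the 3 lists spanned 67 to 560 bp.

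**Figure D3:**
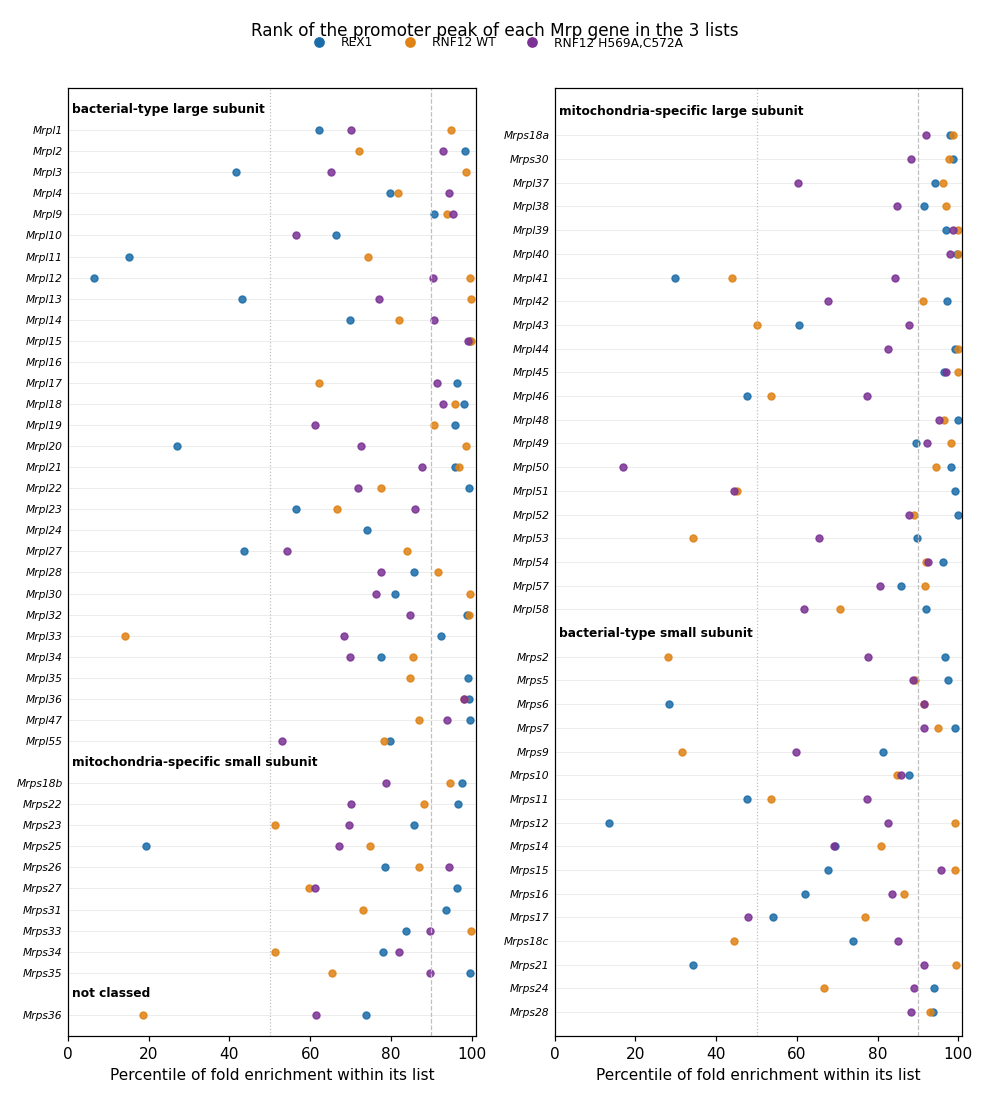
Percentile of fold enrichment of the promoter peak of each Mrp gene within its own list (x axis, 100 = highest peak), by class of ribosomal protein, for REX1, RNF12 WT and the mutant (colours). The dotted line is the median of each list and the dashed line its highest 10%; Mrpl16 has no point, and 38 REX1, 36 RNF12 WT and 22 RNF12 mutant points lie to the right of the dashed line.

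The Mrpl and Mrps genes were compared by symbol. The Mrpl genes had a summit in 48, 46 and 45 of 49 cases for REX1, RNF12 WT and the mutant, and the Mrps genes in 29, 29 and 28 of 29. Their median REX1 percentiles were 91.7 and 83.8, their RNF12 WT percentiles 91.7 and 84.7, and their RNF12 mutant percentiles 84.3 in each case. Their median signed positions were 0 and 0 bp for REX1, -2.5 and 27 bp for RNF12 WT, and -24 and 7 bp for the RNF12 mutant. These are medians over genes of the same libraries, with no test.

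The members were also grouped by the origin of their proteins. The bacterial-type and mitochondria-specific classes were assigned from general knowledge of the ribosome and not from a reference table, and no difference between classes was tested. All 21 mitochondria-specific large subunit genes, a class that also holds Mrps18a and Mrps30 despite their symbols, had a summit in every list. Of the 6 members with a gap, Mrpl10, Mrpl11, Mrpl16, Mrpl24 and Mrpl35 were of the bacterial-type large subunit class, and Mrps31 was a mitochondria-specific small subunit gene. For REX1 the mitochondria-specific large subunit genes stood at percentile 96.5 and the 29 bacterial-type ones with a summit at 80.9. For RNF12 WT the values were 94.4 and 90.8, and for the RNF12 mutant 84.9 and 81.2. In the small subunit the REX1 medians were 89.6 for the 10 mitochondria-specific and 71.6 for the 16 bacterial-type genes. The RNF12 WT medians had the other order there, 73.9 and 85.6, as did the RNF12 mutant medians, 78.9 and 85.4. Mrps36, since found to belong to a metabolic enzyme complex and not to the ribosome, was not classed, and stood at 73.8, 18.5 and 61.5.

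Other genes of mitochondrial translation were counted in the same way. The 5 mitoribosomal proteins without an Mrp symbol had a summit in 4, 5 and 5 cases for REX1, RNF12 WT and the mutant. The 21 genes for assembly of the mitochondrial ribosome had one in 19, 21 and 20 cases, with median percentiles 86.1, 81.9 and 76.8. The 20 mitochondrial aminoacyl-tRNA synthetases, which charge tRNAs with their amino acids, had one in 20, 19 and 20 cases, with 89, 92.3 and 76. The 13 translation factors had one in 12 cases in each list, with 67.7, 76.4 and 79.3. Their median was thus the lowest of these 3 groups for REX1 and RNF12 WT and the highest for the RNF12 mutant, a comparison of medians without a test.

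Many Mrp promoters are shared with a neighbour that is transcribed the other way. A neighbouring protein-coding TSS on the opposite strand lay within 1 kb upstream of 29 members (37.2%), against 11.1% of all genes, 17.4% of cytosolic ribosomal protein genes and 35.3% of respiratory chain genes. The distance ran from 26 to 935 bp, with a median of 59 bp. The members with such a neighbour and the highest REX1 peaks were, in their order of fold enrichment, Mrpl48 beside Rab6a, Mrpl40 beside the histone chaperone gene Hira, Mrpl36 beside Ndufs6, Mrpl51 beside the condensin gene Ncapd2, and Mrps7 beside Gga3. Mrpl46 and Mrps11 were each other's neighbour, 30 bp apart on chromosome 7, and a single peak was counted for both in each list. The remaining members had a peak each, so the counts above rest on 76, 74 and 72 distinct peaks.

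A peak between divergent TSSs cannot be assigned to either gene. Members with such a neighbour had median percentiles of 94.3, 93.2 and 84.3 for REX1, RNF12 WT and the mutant, and those without had 88.8, 86.9 and 84.2. Genes with a divergent neighbour also ranked higher in general, at 83.1, 85.4 and 81.9, against 77.5, 81 and 79.8 over all protein-coding genes. Of the 49 members without a divergent neighbour, 5 had another protein-coding TSS within 1 kb, among them Mrpl47. The 44 members with no other such TSS had a summit in 43, 42 and 39 cases, 97.7%, 95.5% and 88.6%, against 63.3%, 65% and 63.7% of all such genes. Their median summit distances were 28, 27.5 and 46 bp, against 114, 130 and 94 bp. Members with a divergent neighbour had median distances of 38, 93 and 52 bp, and those without had 29, 30 and 46.5 bp. The gap between these groups was thus widest for RNF12 WT, and it was not tested.

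Within the genes, most summits fell in exons or outside the gene body. Of the 77 REX1 summits 22 (28.6%) were in a coding exon, 31 in a noncoding part of an exon, 4 in an intron and 20 outside the gene. Over all genes 19% were in a coding exon and 20.1% in an intron. For RNF12 WT 15 of 75 (20%) were in a coding exon, against 19.8% of all genes, and for the RNF12 mutant 18 of 73 (24.7%), against 18.7%. Intronic summits were 5.19% of the REX1 summits of Mrp genes, and neither difference was tested.

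REX1 summits of Mrp genes lay near the start codon of the protein. This measure was added after the sequences shown above had been seen, and is a description. The median distance from the REX1 summit to the nearest annotated start codon of the gene was 38 bp for the 77 Mrp genes, against 443 bp for all genes and 422 bp for CpG-rich genes. It was 209 bp for cytosolic ribosomal protein genes and 80.5 bp for respiratory chain genes. Within 20 bp of the start codon were 29 REX1 summits (37.7%), against 9.76% of all genes. RNF12 summits were within 20 bp at 7 members for RNF12 WT (9.33%, against 4.65%) and 7 for the RNF12 mutant (9.59%, against 5.14%). Their median distances were 121 and 110 bp, against 430 and 329 bp over all genes.

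**Figure D4:**
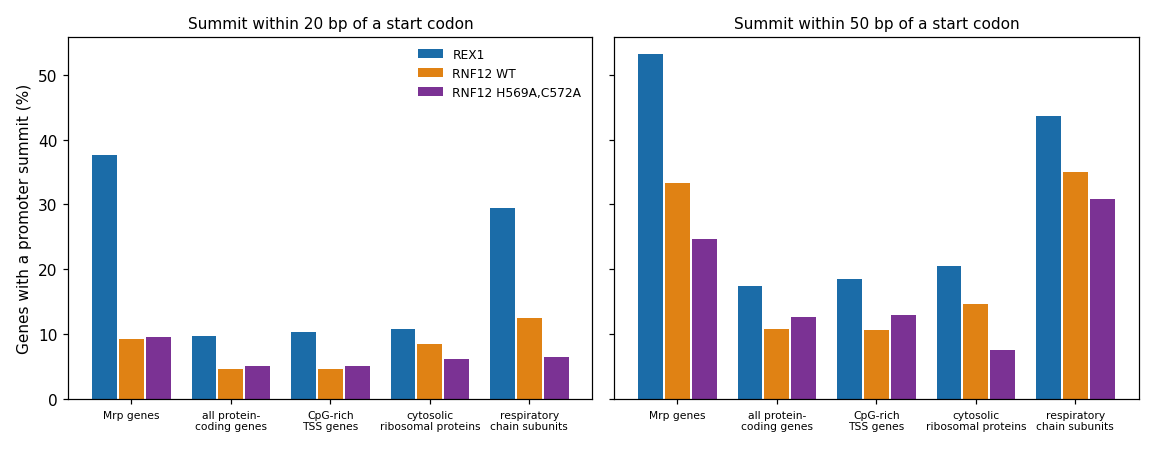
Share of genes with a promoter summit (y axis, percent) whose summit lies within 20 bp (left) or 50 bp (right) of an annotated start codon of the gene, for 5 gene groups and the 3 lists. For REX1 the Mrp genes reach 37.7% and 53.2%, against 9.76% and 17.5% of all protein-coding genes, and the respiratory chain genes 29.5% and 43.6%.

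In Mrp genes the start codon itself lay near a TSS, at a median of 22.5 bp from the nearest, against 76 bp over all genes. The cytosolic ribosomal protein genes had a like median of 22 bp, while their REX1 summits stood farther from the start codon. Over the 77 members with a REX1 summit the median distance was 33 bp from a TSS and 38 bp from the start codon. The REX1 summit was nearer to the start codon at Mrps7, 3 bp from it but 239 bp from the nearest TSS. The order was the other way at Mrpl42 and Mrps24, 2 members chosen after their values were seen. Mrpl42 had its REX1 summit 77 bp from a TSS and 1401 bp from the start codon, and Mrps24 had it 136 bp from a TSS and 8154 bp from the start codon. Whether REX1 summits follow the start codon or the TSS where both are close was not tested.

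Strings of the REX1/YY1 family were frequent at these start codons. The strings searched on both strands were AAGATGGC, ATGGCGGC and ATGGCTGC, which overlap in ATGGC, so that 1 site can hold 2 of them. On the annotated start codon itself, 30 of 78 members (38.5%) had at least 1 of them, against 5.1% of all genes with an annotated start codon and 7.61% of CpG-rich ones. AAGATGGC was there at 10 members, ATGGCGGC at 20 and ATGGCTGC at 8. Of the respiratory chain genes 26.2% had one, and of the cytosolic ribosomal protein genes 6.59%. The strings and the position were chosen with the REX1 summit sequences known, so this count is not independent of the REX1 list.

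All 30 of these members had a REX1 summit. It stood a median of 17 bp from the start codon, within 20 bp at 16 of them (53.3%), and at a median percentile of 96.3. The 47 other members with a REX1 summit had a median of 91 bp and percentile 79.8. Over all genes the corresponding values were 39 bp and percentile 89.5 for the 1012 genes with a string on the start codon, and 486 bp and 76.7 for the 13575 without. For RNF12 WT the members with a string on the start codon stood at percentile 90.8 and those without at 86, with 4 of 29 (13.8%) and 3 of 46 (6.52%) summits within 20 bp of it. For the RNF12 mutant the percentiles were 85.7 and 83, and the shares within 20 bp had the other order, 1 of 29 (3.45%) and 6 of 44 (13.6%). Over all genes the mutant shares were 12.7% and 4.59%. The median distances of members with and without a string were 68 and 154 bp for RNF12 WT and 80 and 126 bp for the RNF12 mutant.

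Read from the summits instead, 32 REX1 summits of Mrp genes (41.6%) had 1 of the 3 strings within 50 bp, against 13.2% of all genes and 14.3% of CpG-rich genes. At 22 of the 32 the ATG of the string was the start codon of the member, and at 3 more, Mrpl36, Mrpl47 and Mrps12, that of a neighbour, Ndufs6, Ndufb5 and Sars2. Over all genes, 27.2% of those with a string near the REX1 summit had it on their own start codon. At RNF12 WT summits 17 members (22.7%, against 4.83%) had a string, and at RNF12 mutant summits 16 (21.9%, against 5.22%). The shares for RNF12 were lower than for REX1 both at Mrp genes and over all genes.

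The string AAGATGGC alone was within 50 bp of the summit at 11 members for REX1, 8 for RNF12 WT and 10 for the RNF12 mutant. These are 14.3%, 10.7% and 13.7%, against 4.8%, 1.81% and 1.91% of all genes. In both RNF12 lists the peak shared by Mrpl46 and Mrps11 was counted for both genes, here and in the counts of any string above. At REX1 summits it read in the direction of the gene in 10 of 11 cases, with its centre a median of 9.5 bp downstream of the TSS and 7.5 bp from the summit. ATGGCGGC was within 50 bp of 21 REX1 summits (27.3%, against 6.48%).

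Motifs of other factors were searched in the promoter, from 250 bases before to 50 after the TSS at the 5′ end of the gene. The ETS string CCGGAAGT was in 12.8% of Mrp promoters (7.12% to 22%), against 4.73% of all and 7.51% of CpG-rich genes, the latter inside the interval. The string GCGCATGC of NRF1, a regulator of nuclear genes for mitochondria, was in 8.97% (95% Wilson interval 4.42% to 17.4%), against 3.4% and 5.42%. CCAAT, bound by NF-Y, was in 35.9%, against 38.9% and 37.8%. TATAAA was in 6.41%, against 12.7% of all genes, and in 6.69% of CpG-rich ones, close to the members. The GC box GGGCGG was in 44.9% of Mrp promoters, against 43.4% of all and 64.4% of CpG-rich ones. At RNF12 mutant summits the GC box was within 50 bp at 21.9% of members, against 40.5% of all genes and 43.7% of CpG-rich genes. The shares were closer at RNF12 WT summits, 22.7% against 27.7% and 30.3%, and at REX1 summits, 19.5% against 22.6% and 24.5%. The RNF12 motif, a consensus read from the logo of the study and searched with up to 1 mismatch, was in 0 of 78 Mrp promoters and at 0 of the Mrp summits. It was in 0.487% of all promoters and at 0.26% of the RNF12 WT summits of all genes, too few for a count of 0 to set the members apart. An absent string says only that these letters are not in the window.

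**Figure D5:**
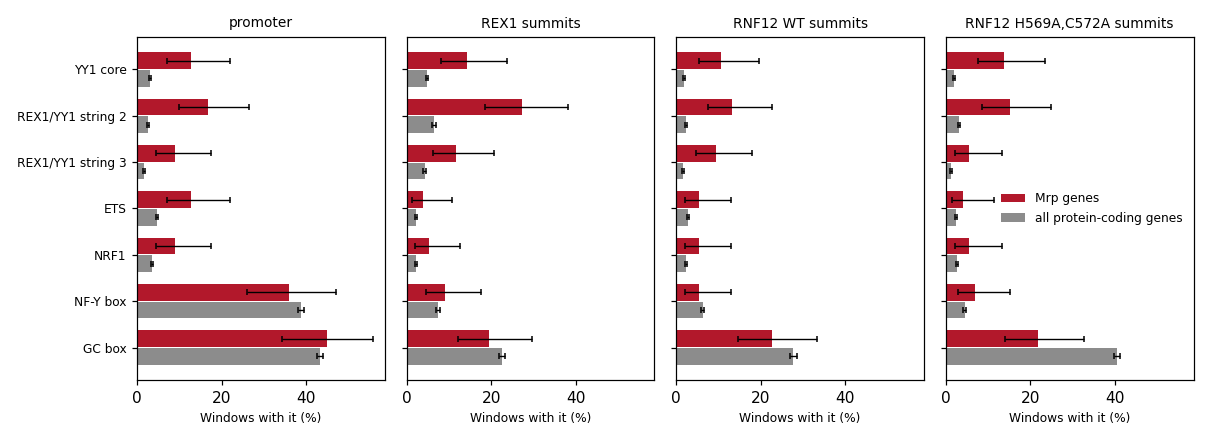
Share of windows that hold each string (x axis, percent) in the promoter and within 50 bp of the REX1, RNF12 WT and mutant summits (panels), for Mrp genes (red) and all protein-coding genes (grey), with 95% Wilson intervals over genes; string 2 and string 3 are the second and the third of the REX1/YY1 family. At REX1 summits string 2 reaches 27.3% of Mrp genes and 6.48% of all genes, whereas the NF-Y and GC boxes differ little there.

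Repeated sequence was not frequent at these summits. The 32 bases at the summit occurred once in chromosomes 1 to 19 and X at all but 1 of the 77 REX1 summits, 1 of the 75 for RNF12 WT and 1 of the 73 for the RNF12 mutant. The exceptions were Mrps36 for REX1 and Mrps5 for RNF12 WT, with 3 copies each, and Mrpl57 for the RNF12 mutant, with 46 copies. Soft-masked bases were within 50 bp of 14.3%, 6.67% and 11% of the Mrp summits, against 18.1%, 16.9% and 18.3% over all genes.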

How the data were processed

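The members, families and motif strings were chosen with earlier results of these data known. ChIP-seq peaks of REX1, RNF12 WT and RNF12 H569A,C572A, 1 library each, were called by the authors with MACS2 2.2.7.1 after trimming with Trim Galore 0.6.7, alignment with Bowtie2 2.5.0 to mm10 masked at strain differences and merging of alleles with SAMtools 1.10. The deposited values per peak are fold enrichment over control, a ratio, −log10 p- and q-values, and a score that was not used. All peaks had a −log10 q of at least 1.31. Read totals are not in the lists, so depth is unknown.

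The summit of a peak, deposited as an offset from the start of the peak by the authors, was placed within 1 kb of any TSS of GENCODE M21 genes. Where several qualified, that of highest fold enrichment was kept. Members named are the 5 highest per list, those missing from a list, the farthest and closest summits and the 5 highest with a divergent neighbour; all other members named, those with printed sequences included, were chosen after their values were seen. Shares carry 95% Wilson intervals over genes. No p-value was computed, since each list is 1 library. The start codon and 32-base measures were added after the data were seen. The scripts ran in Python 3.11.15 with pandas 2.3.3, numpy 2.4.6 and scipy 1.17.1. The summit search was tested on simulated data, where 2806 of 2806 planted summits were found.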

Additional observations from a re-analysis of the deposited data

How the results depend on the processing

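Shares, distances, ranks and counts were recomputed with other peak thresholds, limits of 300 bp and 3 kb, other TSS sets, the nearest in place of the highest summit, ranking by −log10 q and overlap in place of summits. Of 104 such values, 88 stayed within the 95% interval over genes of the reported value or, for a count, within 1.5 times of it. The latter include 55 members, in place of 72, whose peaks in the 3 lists overlapped by at least 1 bp (29% of all genes). Keeping the 20000 peaks of highest −log10 q per list, a construction with fewer peaks, gave shares of 74.4% in the REX1 list, 67.9% for RNF12 WT and 46.2% for the RNF12 mutant (all genes 35.3%, 40.4% and 28.3%), 23 members in all 3 lists (14.3% of all genes), 6 in none (45%), and percentiles of 74.3 for RNF12 WT and 57.9 for the RNF12 mutant (61.7 and 52). Peaks with −log10 q of at least 5 put RNF12 WT at 79.9 (70.1). With the 5′ end of the gene as its only TSS, median distances were 84.5 bp in the REX1 list, 131 bp for RNF12 WT and 100 bp for the RNF12 mutant (all genes 179, 199 and 166 bp), and 2 members were in no list (29.7% of all genes). With TSSs of coding transcripts they were 50, 80 and 61 bp (all genes 130, 146 and 114 bp). Among genes with no other TSS within 1 kb, 39 of 44 members were in all lists (56.1% of all such genes), the RNF12 WT distance was 27.5 bp (130 bp), and the RNF12 mutant percentile of members, 77.7, was below that of all such genes, 79.2. Summits of the 3 lists within 100 bp of each other were found at 23 members (11.2% of all genes). The causes of these shifts were not tested beyond the smaller sets that each alternative builds.

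No paired analysis was possible because each list comes from 1 library and no test was made. No replicate was left out, since each list has 1 library. The control behind each list, library depth and antibody background were not examined, and a shared promoter leaves the gene of a peak undetermined.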
